A study of Mus musculus with 150 samples.

Results

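Interval c is a stretch of 39009 bp on mouse chromosome 16, chr16:48581359-48620367 (mm10), that lies inside the gene Morc1 (chr16:48431237-48630905) and holds the whole of the annotated gene Gm41458 (chr16:48600118-48613840). The clones described here carry a CRISPR deletion of this interval and no other labelled edit. They were chosen by that label and make up 8 of the 150 samples of the series, an early and a late S-phase fraction of each of 4 clones, A12, B11, C6 and C9. All 4 are mouse embryonic stem cells (mESC) of the hybrid cas/129 background, kept in medium with 2i and LIF. After a BrdU pulse of 2 hours the early and the late fraction of a clone were sequenced and combined into 1 profile of a replication timing score per allele, in columns named svim and cast. A higher score means earlier replication.

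No clone without an edit is among the cas/129 samples listed. The table also holds 6 columns of a line that no listed sample names, which may or may not be unedited and were not analysed here. Therefore the c.del clones were compared with 5 cas/129 clones that carry 1 edit elsewhere and share the cell type, the medium and the pulse. These comparison clones are 30kdel B11 and 30kdel C2 (deletion of chr16:48665576-48695490, to the right of c), 29kdel D8 (deletion of chr16:48235963-48264883), 14kdel D11 (deletion of chr16:48264884-48280115) and 24.5kinv 3 (inversion of chr16:48311882-48336437). Other deletion clones used further on are a.del (chr16:48308399-48311882), b.del (chr16:48396806-48437301), their combinations with c (bc.del, ac.del) and the deletion of all 3 intervals (abc.del), with 2 clones of each. Each clone gave 1 profile, or the mean of its repeat libraries, and the labels name the clones without saying how they were derived. The p-values therefore measure only the spread between clones. Among the comparison clones this spread also holds any effect of their different edits, which were pooled as 1 group. Read depth is unknown, because the deposited scores keep no counts.

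Chromosomes are copied in domains that replicate at characteristic times in S phase, and in mESC this region holds an early domain with Dppa2 and Dppa4, a pair of neighbouring genes for DNA-binding proteins of pluripotent cells. Early replication control elements are stretches of DNA in cis whose removal delays the replication of the DNA around them. Morc1, the gene that contains c, encodes a nuclear ATPase of the male germ line. The single deletion of c, beside those of a and b and their combinations, addresses which parts of the domain need which interval.

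The labels did not name the edited allele. At the 8 positions inside c, all 4 c.del clones were blank at 8 of 8 positions in the svim column and at 0 of 8 in the cast column, whereas the 5 comparison clones had a value at every one of them on both alleles. The missing values thus lay on svim in each c.del clone. In the 18 columns of these 9 clones, the mean over the early control list was 1.97 to 3.71 and over the late control list -2.07 to -1.30. By these list means the scale ran in the same direction in 18 of 18 columns. Not every late control scored late: on svim Kcnj6 averaged 2.15 in c.del and 2.34 in the comparison clones, and Gap43 0.76 and -0.064. The remaining late controls averaged below 0 on svim in both groups. Over positions more than 2 Mb from every labelled edit, the c.del profiles of 1 allele correlated with each other at 0.94 to 0.98 and those of the comparison clones at 0.83 to 0.98. The clone 24.5kinv 3 stood apart there, with a median svim score of -0.28 where the other 8 clones had -1.88 to -1.09.

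**Figure D1:**
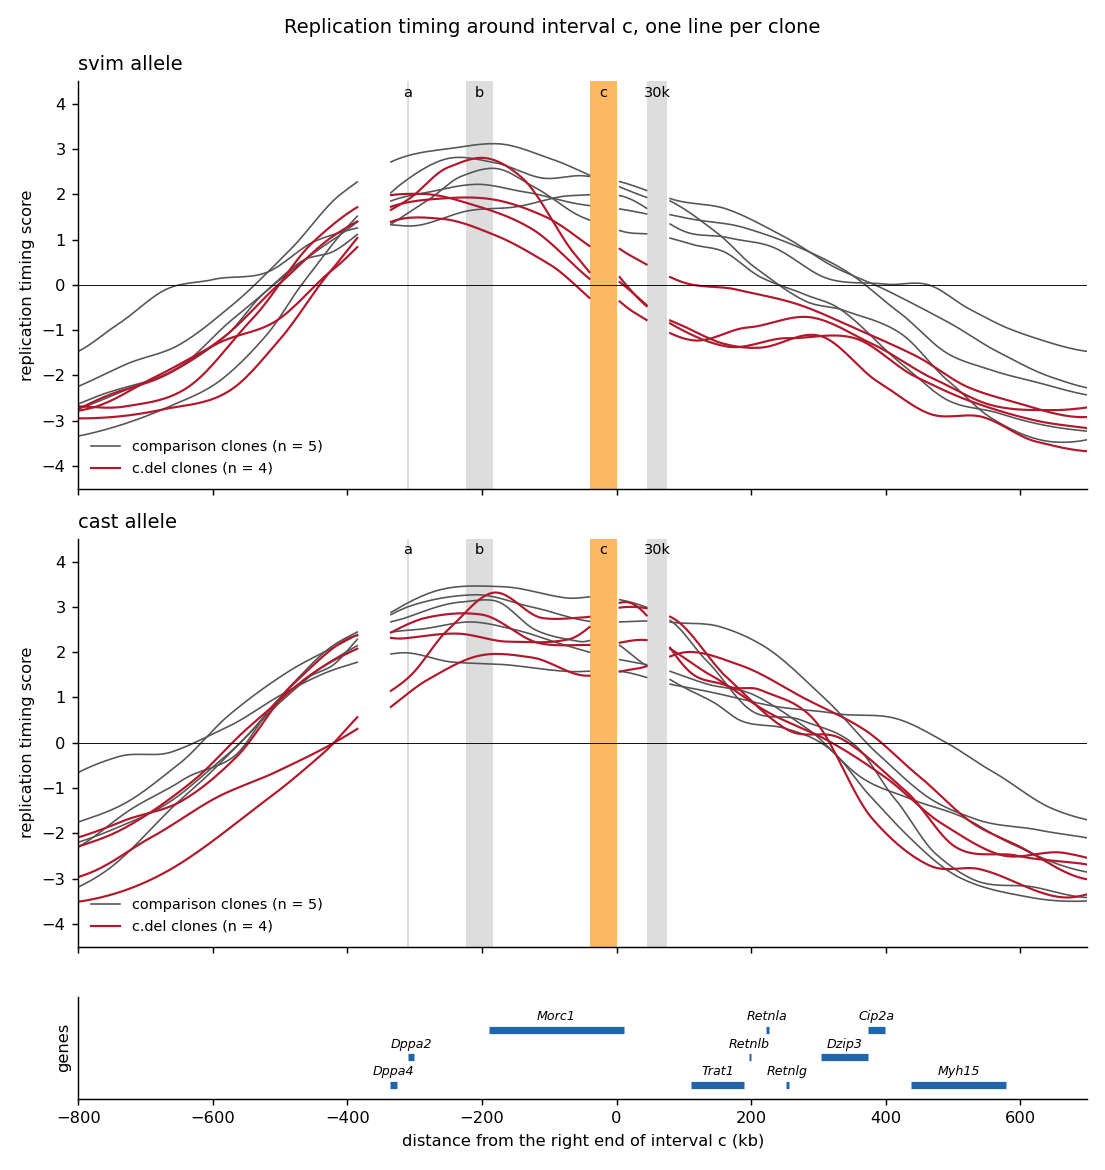
Replication timing score (y axis) of the svim allele (top) and the cast allele (middle) against the distance from the right end of interval c in kb (x axis), with 1 line per clone and the protein-coding genes below. Gaps are positions deleted in any of the 9 clones, and shaded bars mark a, b, c and the 30kdel. To the right of c the 4 red c.del lines run below the 5 grey comparison lines on svim and among them on cast.

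The svim allele of the c.del clones replicated later on the right of interval c and just to its left. Trat1 and Retnlb were the genes that passed on svim. Dppa2 and Dppa4 themselves kept svim scores within the range of the comparison clones. In the 45.2 kb between c and the 30kdel (chr16:48620368-48665575) the svim scores were -0.19 in A12, -0.58 in B11, 0.62 in C6 and -0.17 in C9. The comparison clones had 2.19 (14kdel D11), 1.85 (24.5kinv 3), 1.15 (29kdel D8), 1.62 (30kdel B11) and 2.04 (30kdel C2). The groups did not overlap, and C6 came closest to the comparison clones. The mean was -0.080 ± 0.50 (SD, n = 4) against 1.77 ± 0.41 (SD, n = 5), a difference of -1.85 ± 0.32 (SE; limma adjusted p = 0.0144 and exact two-sided permutation p = 0.0079, the smallest that 4 against 5 clones can give).

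The next 200 kb to the right of the 30kdel (chr16:48695491-48895490), which hold Trat1 and the Retnl genes, showed a shift of like size. Svim scores there were -1.21 in A12, -0.995 in B11, -0.14 in C6 and -1.20 in C9. The comparison clones ranged from 0.48 in 29kdel D8 to 1.5 in 30kdel C2, with 0.77 in 14kdel D11, 0.97 in 24.5kinv 3 and 1.25 in 30kdel B11. Every c.del clone had a negative score and every comparison clone a positive one. The difference was -1.88 ± 0.32 (SE; limma adjusted p = 0.0144, exact permutation p = 0.0079).

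Between b and c, and farther out on the right, the svim differences of the whole segments were smaller and did not pass the limma test. Between b and c, a stretch inside Morc1, the svim mean was 1.16 ± 0.53 (SD, n = 4) against 2.22 ± 0.41 (SD, n = 5). The groups did not overlap there (exact permutation p = 0.0079, 0.0185 adjusted over the 7 segments), but the difference of -1.07 did not pass the limma test over the chromosome (adjusted p = 0.71). From 200 to 500 kb to the right of the 30kdel the difference was -0.98 (limma adjusted p = 0.94, exact permutation p = 0.048, 0.083 adjusted over segments). Left of b the differences were -0.32 between a and b and -0.26 left of a, with 95% intervals from -1.04 to 0.40 and from -0.93 to 0.40. In the left flank (chr16:47900079-48190130) the svim difference was -0.59 (95% interval from -1.36 to 0.18), with all 4 c.del clones below the comparison mean. On cast the left flank differed by -0.93 (95% interval from -1.73 to -0.14). Neither allele passed the limma test there (adjusted p = 0.94 on svim and 0.998 on cast).

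Over the chromosome, 5 of 1893 windows of 50 kb were lower on svim and 0 higher (limma, adjusted p under 0.05; 0.264% called lower), all between 48550001 and 48850000. The window at 48550001 kept only positions to the left of c, with -1.62 (limma adjusted p = 0.030), and was called in 5 of 15 settings. At 5 kb to the left of c the svim means were 0.31 in c.del and 2.01 in the comparison clones. At 5 kb to the right they were 0.17 and 1.86. Windows in which all 4 c.del clones lay below all 5 comparison clones made up 1.8% of the 1893, and those in which they lay above all 5 made up 0.475%. These svim calls did not hold under every setting. They were lost (0 windows) when each column was rescaled to 1 median and interquartile range over distant positions, under quantile normalization, and without c.del A12, c.del B11, 30kdel C2 or both 30kdel clones. Without 30kdel B11 there were 2 windows, and without c.del C9 there were 3. The right segment's difference stayed at -1.57 under rescaling (adjusted p = 0.74) and at -1.48 under quantile normalization (limma adjusted p = 0.067). Both segments beside and beyond the 30kdel also lost their svim calls without c.del A12, c.del B11, 30kdel B11, 30kdel C2 or both 30kdel clones, with limma adjusted p from 0.051 to 0.35. Rescaling moved all windows nearly alike, and their median difference went from -0.16 to 0.15. Relative to that median the right segment was at -1.72 as deposited, and at -1.47 under quantile normalization.

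The cast allele of the same clones served as a control within each library. Between c and the 30kdel the cast scores were 2.99 in A12, 2.25 in B11, 1.63 in C6 and 3.02 in C9, within the range of the comparison clones (1.52 to 3.08). Beyond the 30kdel they were 1.35, 1.15, 1.66 and 1.28 in the same order, again within the comparison range (0.69 to 2.31). The cast differences between the groups were 0.27 (95% interval from -0.57 to 1.11) and 0.086 (from -0.63 to 0.80). With limma no cast window was called in 1893 (0%), while 89 had an unadjusted p under 0.05. All 4 c.del clones lay below all 5 comparison clones on cast in 1.64% of windows and above them in 0.0528%.

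**Figure D2:**
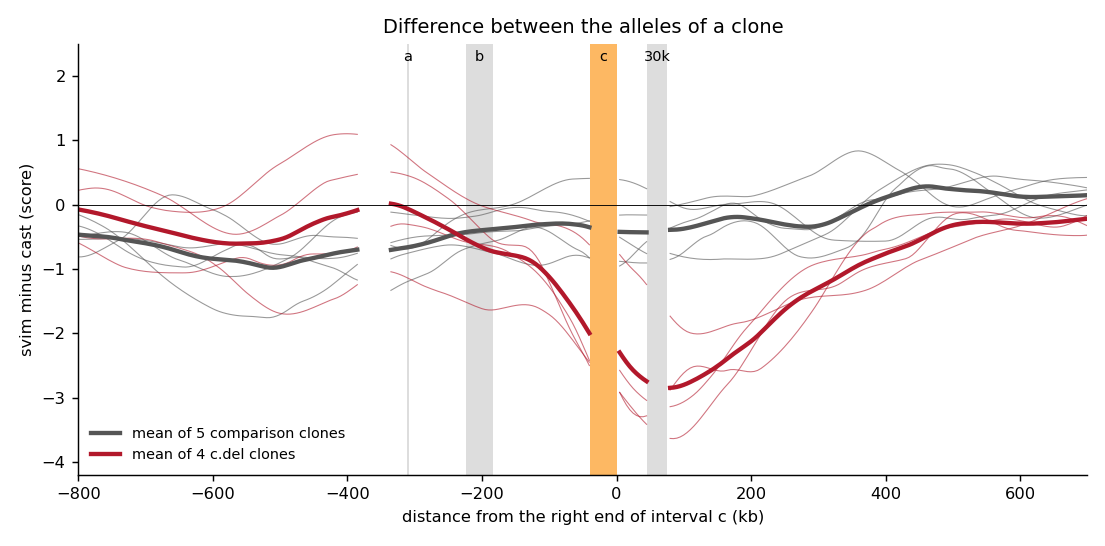
Svim score minus cast score of the same clone (y axis) against the distance from the right end of interval c in kb (x axis). Thin lines are clones and thick lines the means of the 4 c.del and the 5 comparison clones. The c.del mean falls below the comparison mean from the left of c to beyond the 30kdel on its right. Among the positions kept, the means differ most at 79.6 kb to the right of c, next to the left-out 30kdel.

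Taking svim minus cast within a clone removes what both alleles of a library share, and on this readout the delay to the right of c held under more of the settings tried. The difference between the alleles to the right of the 30kdel was -2.56 in A12, -2.15 in B11, -1.80 in C6 and -2.48 in C9. The comparison clones had -0.51 (14kdel D11), -0.029 (24.5kinv 3), -0.21 (29kdel D8), 0.15 (30kdel B11) and -0.81 (30kdel C2). Every c.del clone lay below the lowest comparison clone, and over the chromosome the groups were apart in this direction in 0.845% of windows and in the other in 0.951%. The means were -2.25 ± 0.35 (SD, n = 4) and -0.28 ± 0.38 (SD, n = 5), and the interaction of allele and genotype was -1.97 ± 0.25 (SE; limma adjusted p = 0.00027, exact permutation p = 0.0079). This value kept its call under all 14 alternatives run for it, with a range of -2.11 to -1.64.

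Between c and the 30kdel the alleles differed by -3.18 in A12, -2.84 in B11, -1.01 in C6 and -3.18 in C9, against -0.90 to 0.33 in the comparison clones. The clone C6 lay just below the comparison range and far from the other 3. The interaction was -2.12 ± 0.39 (SE; limma adjusted p = 0.0138, exact permutation p = 0.0079). It lost its call without c.del A12 (adjusted p = 0.11), c.del B11 (0.069), c.del C9 (0.076), 30kdel B11 (0.052) or both 30kdel clones (0.20), with differences of -2.11 to -1.91 in these fits.

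Farther out the alleles diverged less. From 200 to 500 kb to the right of the 30kdel, svim minus cast was -0.73, -0.58, -0.99 and -0.47 in A12, B11, C6 and C9, and -0.38 to 0.39 in the comparison clones. The groups did not overlap, but the difference of -0.76 ± 0.23 (SE) did not pass the limma test (adjusted p = 0.43; exact permutation p = 0.016, 0.037 adjusted over segments). Between b and c the difference was -0.83 ± 0.29 (SE; limma adjusted p = 0.66, exact permutation p = 0.056). Left of b no segment passed, with differences of 0.24 between a and b, 0.62 left of a and 0.34 in the left flank.

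Along the chromosome the difference between the groups' allele differences was deepest at position 48700000, 79.6 kb to the right of c, with -2.46. The difference stayed below -1.23, which is 50% of the depth at 48700000, over 330 kb, from 31.4 kb to the left of c to 260 kb to its right. The profile was thus lopsided about the deletion, and most of the width lay on the side away from Dppa2 and Dppa4. At 100 kb to the left of c the same quantity was -0.48, at 100 kb to the right -2.43 and at 200 kb to the right -1.92.

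With limma, 5 of 1893 windows were lower for svim minus cast and 0 higher (0.264% called lower), at chr16:48600001-48650000 and from 48700001 to 48900000. Of these, 4 were also among the 5 svim windows, 80% of either list. Both readouts use the same svim values, so this overlap adds no separate support. The svim window at 48550001, left of c, was not called here (-1.47, limma adjusted p = 0.11). The 3 windows from 48700001 to 48850000 were called in all 15 settings with 50 kb windows, including rescaling (4 windows), quantile normalization (5) and the fit without both 30kdel clones (3). There were also 3 windows each without c.del A12, c.del B11, c.del C9, 30kdel B11 or 30kdel C2. The lowest window was that at 48700001, with -2.41, and the lowest of the 1795 windows more than 2 Mb from every edit had -0.90. No such distant window was called on svim or on svim minus cast. The 3 distant windows with the smallest p on svim lay at chr16:42450001-42500000 (1.2), chr16:42500001-42550000 (1.2) and chr16:36850001-36900000 (-0.90), with limma adjusted p of 0.71, 0.71 and 0.78.

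**Figure D3:**
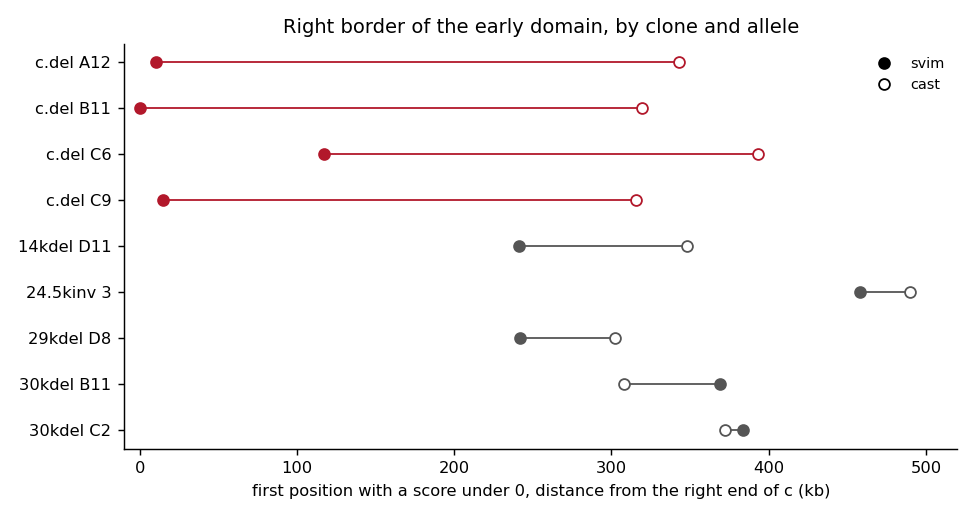
First position to the right of c with a score under 0, as the distance from the right end of c in kb (x axis), for each clone (y axis). Filled points are svim, open points cast, and a line joins the alleles of a clone. The 4 c.del clones have svim borders of 0 to 117 kb and cast borders of 316 to 393 kb.

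The place where the profile first fell under score 0, taken as the right border of the early domain, moved towards c on svim. The svim border lay 10.1 kb to the right of c in A12, at c itself in B11 (its score was already under 0 beside c, so 0 kb is a bound), 117 kb away in C6 and 14.9 kb away in C9. In the comparison clones it lay at 241 kb (14kdel D11), 458 kb (24.5kinv 3), 242 kb (29kdel D8), 369 kb (30kdel B11) and 383 kb (30kdel C2). The nearest svim border of a comparison clone was thus more than 100 kb beyond that of C6. The mean border was 35.6 ± 54.9 kb (SD, n = 4) against 339 ± 94.9 kb (SD, n = 5), a difference of -303 kb (exact permutation p = 0.0079).

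No such difference appeared at the cast border. In the c.del clones it lay at 343 kb in A12, 320 kb in B11, 393 kb in C6 and 316 kb in C9, and at 302 to 490 kb in the comparison clones (exact permutation p = 0.72). Within clones, the svim border minus the cast border was -333, -320, -276 and -301 kb in A12, B11, C6 and C9, where a negative value places svim to the left. In the comparison clones it was between -107 kb (14kdel D11) and 61.6 kb (30kdel B11). The difference between the groups was -282 ± 31.5 kb (SE; exact permutation p = 0.0079), and it ranged from -302 to -212 kb over the alternatives.

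The slope of the svim profile differed between the groups, short of the threshold after adjustment. Over the 200 kb to the right of the 30kdel the score fell by 1.21 ± 0.56 (SD, n = 5) from start to end in the comparison clones, and by 0.23 ± 0.42 (SD, n = 4) in the c.del clones. In B11 it rose by 0.36. The groups did not overlap (exact permutation p = 0.016), but after adjustment over the 9 measures of shape p was 0.071. The earliest svim position lay 216 ± 50.2 kb (SD, n = 4) to the left of c in c.del and 131 ± 75.5 kb (SD, n = 5) to the left in the comparison clones, with overlap (exact permutation p = 0.079).

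At the left border of the domain no difference passed. Counted from the right end of c, with negative distances to the left, it lay on svim at -503 to -441 kb in the c.del clones and at -647 to -468 kb in the comparison clones (exact permutation p = 0.10). On cast the ranges were -571 to -420 kb and -628 to -552 kb (p = 0.063 by the same exact permutation test). Both c.del C6 and c.del C9 had low cast scores on this side: left of a they had 0.41 and 0.60, where A12 had 2.26, B11 had 2.14 and the comparison clones had 1.79 to 2.53. Svim minus cast left of a was accordingly 1.01 in C6 and 0.45 in C9 and -0.58 in A12 and -1.27 in B11, and the part of these cast values in the left-side results was not tested. Beyond the 30kdel their cast scores were within the comparison range.

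Of the 14 genes of the right flank list, 12 were measured. Gene scores are means over the positions inside the gene body. Retnlb, Retnla and Retnlg hold no position at the 5 kb spacing, so each took the score at the 1 position nearest its midpoint, outside the gene. Gene scores use the same positions as the windows, so they name what lies there and add no separate support. On svim, 2 of the 12 were lower with limma, Trat1 and Retnlb, which are also the only 2 of 679 genes called (0.295%). For svim minus cast 4 of the 12 were lower, Trat1, Retnlb, Retnla and Retnlg, and these are all the genes called on the chromosome (0.589% of 679). The median difference of the list was -0.73 for svim minus cast, beside 0.085 over all 679 genes. On cast 0 of the 12 were called, and the list's median was -0.092 beside -0.096 over all genes. Rescaling and quantile normalization left 0 genes called on svim, as did the fits without c.del A12, c.del B11 or both 30kdel clones. Without 30kdel B11, 30kdel C2 or c.del C9 only Trat1 was called on svim. Both scalings left the same 4 genes called for svim minus cast.

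Trat1 (chr16:48730774-48810547) encodes a transmembrane adaptor of the T cell receptor, and its left end lies 110 kb to the right of c. Its svim score was -1.29 in A12, -1.11 in B11, -0.061 in C6 and -1.24 in C9, and 1.09 (14kdel D11), 1.06 (24.5kinv 3), 0.72 (29kdel D8), 1.36 (30kdel B11) and 1.70 (30kdel C2) in the comparison clones. Its cast score in the c.del clones was 1.66, 1.38, 1.86 and 1.32, inside the comparison range of 0.80 to 2.54. All 4 svim values were below 0 and all 4 cast values above 1. The interaction was -2.24 ± 0.26 (SE; limma adjusted p = 6.1e-05) and was called in all 15 settings.

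Retnlb, Retnla and Retnlg encode resistin-like secreted proteins and follow Trat1 in this order, their starts 196, 222 and 252 kb to the right of c. Retnlb (chr16:48816856-48818892) had svim scores of -1.33, -0.94, -0.18 and -1.39 in A12, B11, C6 and C9, against 0.31 to 1.45 in the comparison clones. Its interaction was -1.92 ± 0.25 (SE; limma adjusted p = 0.00020). Retnla (chr16:48842609-48844461) had svim minus cast of -1.84, -1.54, -1.69 and -2.47 in the c.del clones and -0.82 to 0.20 in the comparison clones, and Retnlg (chr16:48872608-48874498) had -1.46, -1.20, -1.55 and -2.15 against -0.71 to 0.32. All 4 c.del clones thus lay below the comparison range at both. The interaction of Retnla was -1.63 ± 0.26 (adjusted p = 0.0015), and that of Retnlg was -1.28 ± 0.26 (adjusted p = 0.023). From Trat1 to Retnlg it shrank in the order of the genes along the chromosome. Retnlb and Retnla were called in all 15 settings. Retnlg was called in 10 and lost its call without c.del C6, c.del C9, 30kdel B11, 24.5kinv 3 or both 30kdel clones (adjusted p from 0.065 to 0.15). On svim alone Retnla (-1.63, adjusted p = 0.059) and Retnlg (-1.36, adjusted p = 0.18) did not pass.

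The sequence before the annotated start was looked for in RefSeq's promoter table (GRCm38.p6, the mm10 build) for the 9 named genes from Dppa4 to Cip2a and was found for 5. Those of Dppa4, Dppa2, Morc1 and Retnlb were not found. The sequence is shown for Trat1, Retnla and Retnlg, the genes called for svim minus cast that were found there. It covers the 250 bases before the start, 5' to 3' on the gene's strand, with CG pairs in capitals. The table's start of Trat1, a minus-strand gene, lies inside the annotated span of the gene.
Trat1, chr16:48772063-48772312, minus strand: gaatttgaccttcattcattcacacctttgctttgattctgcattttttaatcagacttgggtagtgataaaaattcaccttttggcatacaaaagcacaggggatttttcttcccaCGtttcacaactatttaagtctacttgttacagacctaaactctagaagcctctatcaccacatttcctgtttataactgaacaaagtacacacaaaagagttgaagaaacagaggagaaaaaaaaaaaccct
Retnla, chr16:48842359-48842608, plus strand: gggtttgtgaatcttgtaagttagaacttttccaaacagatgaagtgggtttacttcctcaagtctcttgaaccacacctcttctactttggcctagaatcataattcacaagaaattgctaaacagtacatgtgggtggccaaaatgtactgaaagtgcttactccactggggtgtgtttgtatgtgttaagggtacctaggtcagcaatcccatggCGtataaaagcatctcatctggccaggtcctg
Retnlg, chr16:48872358-48872607, plus strand: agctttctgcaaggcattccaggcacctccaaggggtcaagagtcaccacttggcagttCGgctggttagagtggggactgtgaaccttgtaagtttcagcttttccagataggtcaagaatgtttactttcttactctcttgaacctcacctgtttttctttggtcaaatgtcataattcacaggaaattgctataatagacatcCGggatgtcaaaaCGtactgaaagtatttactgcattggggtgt
They hold 1, 1 and 3 CG, searched as the letters CG, which read alike on both strands. Of the 32851 promoters of this length in the table, 92.1% hold at least 1 CG and 71.0% at least 3, and the median is 6. Dzip3 and Cip2a, the next genes to the right, whose starts face away from each other, hold 19 and 23. Any link between these counts and replication timing was not tested. TATAAA on either strand occurs once before Trat1, once before Retnla and not before Retnlg, and in 12.4% of all promoters of the table.

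**Figure D4:**
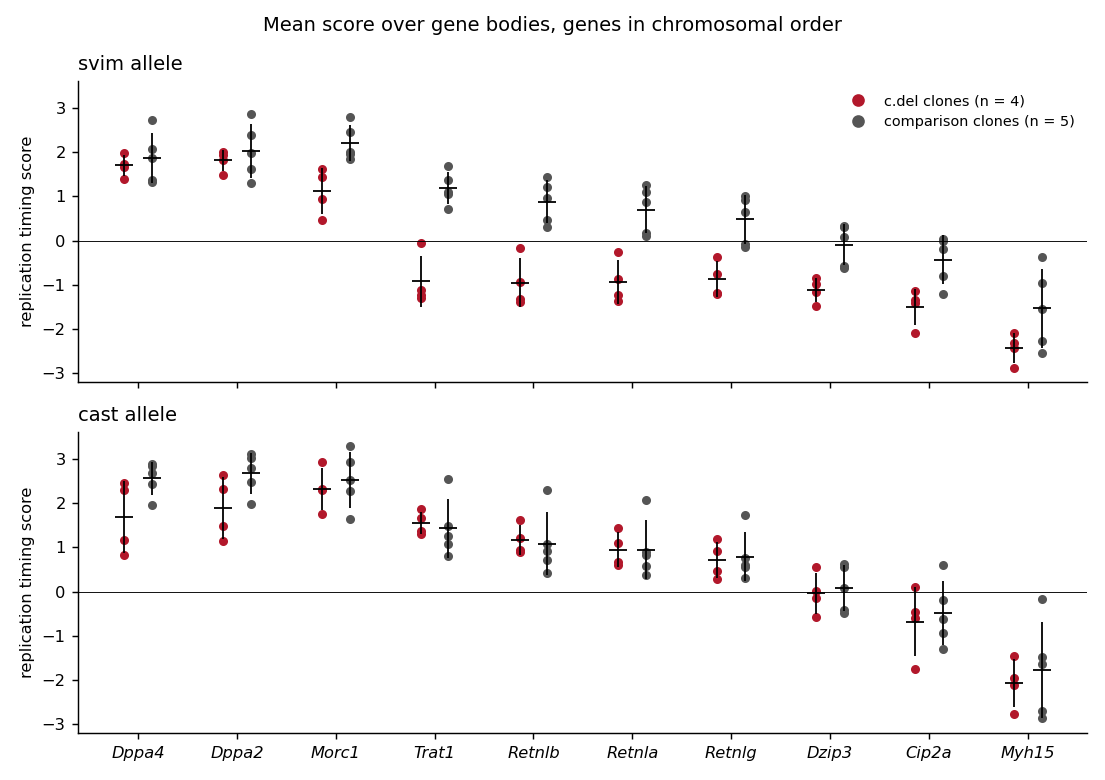
Mean replication timing score over the gene body (y axis) on svim (top) and cast (bottom) for genes in chromosomal order (x axis). For Retnlb, Retnla and Retnlg it is the score at the position nearest the gene. Points are clones, and black bars are the group mean with the SD. From Trat1 to Retnlg the c.del and comparison points are apart on svim and mixed on cast, and at Dppa4 and Dppa2 they are mixed on svim.

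Beyond Retnlg the differences were smaller. Dzip3 (chr16:48924228-48994142), which encodes a ubiquitin ligase, had svim scores of -1.16, -0.99, -0.84 and -1.49 in A12, B11, C6 and C9 and -0.62 to 0.33 in the comparison clones. These did not overlap, but the difference of -1.02 did not pass (limma adjusted p = 0.50). Cip2a (chr16:48994157-49019716), whose product inhibits the phosphatase PP2A, had -1.41, -1.34, -1.15 and -2.10 against -1.22 to 0.032. Its difference was -1.07 (limma adjusted p = 0.58). Myh15, a myosin heavy chain gene, differed by -0.89 (adjusted p = 0.99). For svim minus cast the remaining 5 genes of the list, Ift57, Cd47, Bbx, Cblb and Alcam, differed by -0.38, 0.20, 0.029, -0.17 and -0.047, and none passed.

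The 3 genes of the domain itself did not pass on any of svim, cast and svim minus cast. Dppa4 had svim scores of 1.99, 1.40, 1.74 and 1.68 in A12, B11, C6 and C9, and 1.32 to 2.73 in the comparison clones. Dppa2 had 2.01, 1.48, 1.84 and 1.93 against 1.30 to 2.87. Both genes kept positive svim scores in every c.del clone, and their differences were -0.17 ± 0.32 and -0.22 ± 0.33 (SE). On cast they differed by -0.88 ± 0.37 and -0.78 ± 0.36 (SE; limma adjusted p = 0.93 for both), with all 4 c.del clones below the comparison mean. Dppa4 had cast scores of 2.31, 2.45, 0.82 and 1.17 in A12, B11, C6 and C9, against 1.97 to 2.90. Svim minus cast differed by 0.71 at Dppa4 and 0.56 at Dppa2 (limma adjusted p = 0.70 for both). Morc1, measured outside c, had svim scores of 0.95, 0.46, 1.44 and 1.61, below all 5 comparison clones (1.85 to 2.80), with a difference of -1.09 ± 0.32 (SE; limma adjusted p = 0.50). Its cast scores of 1.76 to 2.93 lay within the comparison range of 1.64 to 3.30. Of the left flank list 8 of 10 names were measured and 0 passed in either direction on svim, cast or svim minus cast, and 0 of 12 early and 0 of 11 late control genes did.

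Set against 0, svim minus cast in the c.del clones was -2.55 between c and the 30kdel, -2.25 to the right of the 30kdel, -1.15 between b and c and -0.69 from 200 to 500 kb beyond the 30kdel, and these 4 of the 7 segments passed the limma test. This comparison of the alleles includes differences the hybrid has elsewhere. With limma 173 windows were lower on svim than on cast and 187 higher (9.14% and 9.88% of 1893), and of 679 genes 6.19% were lower and 9.72% higher. An exact sign-flip test over 4 clones cannot go below p = 0.125.

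**Figure D5:**
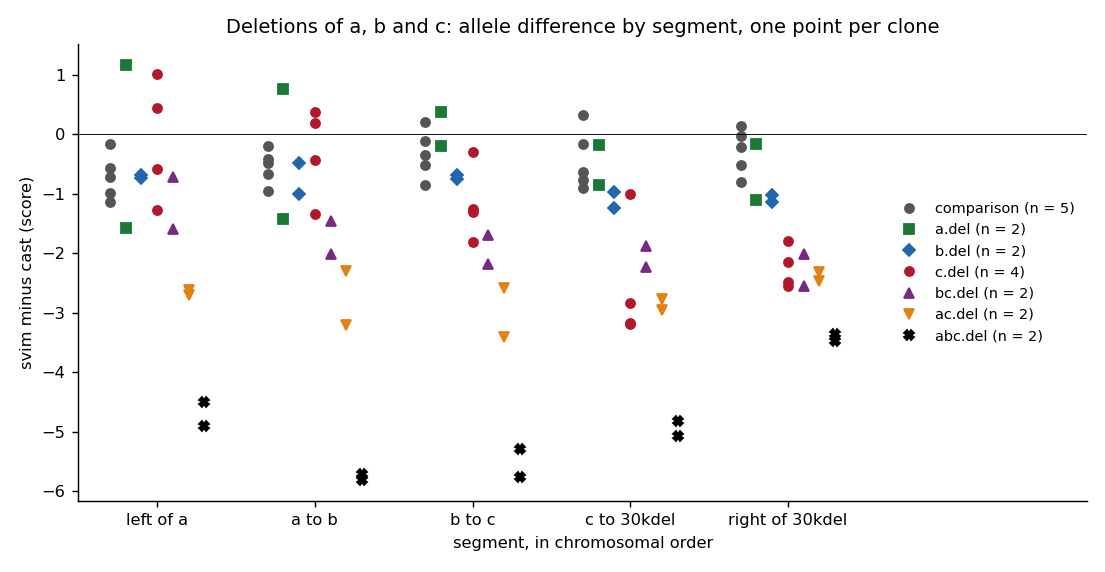
Svim minus cast (y axis) in 5 segments from left to right (x axis), with 1 point per clone for the comparison clones and the deletions of a, b and c alone and combined. To the right of the 30kdel the c.del, bc.del and ac.del points fall together between -2.56 and -1.80, and left of c those of ac.del and abc.del lie below those of c.del.

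To see what c adds and what it leaves, c.del was set against clones with the other intervals deleted, in 1 limma fit with positions inside any of their deletions left out. These comparisons share the 4 c.del clones. Deleting b as well as c gave nearly the same values to the right of the 30kdel. Svim minus cast there was -2.02 in bc.del B3 and -2.55 in bc.del D12, and bc.del minus c.del was -0.034 (95% interval from -0.67 to 0.60). No window passed between bc.del and c.del on svim, cast or svim minus cast (0 of 1889, with 30, 44 and 80 at p under 0.05 before adjustment). Between a and b the value was -1.44 (95% interval from -2.40 to -0.47; limma adjusted p = 0.998), so the clones were not shown to be alike there.

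Deleting a as well as c went with a lower svim minus cast on the left side. On the right, beyond the 30kdel, ac.del had -2.32 and -2.47, and ac.del minus c.del was -0.15 (95% interval from -0.79 to 0.49). Between a and b ac.del had -2.30 and -3.20, where the c.del clones had -1.34 to 0.38, a difference of -2.45 ± 0.47 (SE; adjusted p = 0.018). For svim minus cast 7 of 1889 windows were lower in ac.del (0.371%), between 48100001 and 48550000, and Dppa2 differed by -2.34 (adjusted p = 0.040). These calls rest on few clones: the windows fell to 0 without ac.del H8, to 1 without c.del C6 and to 2 without c.del C9 or ac.del E4.

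With all 3 intervals deleted the left side was later still. Between a and b abc.del had -5.81 and -5.72, a difference from c.del of -5.46 ± 0.47 (SE; adjusted p = 2.6e-08), and 11 of 1889 windows were lower (0.582%), between 48000001 and 48650000. Trat1 had svim minus cast of -3.88 and -3.68 in abc.del and -2.96 to -1.93 in c.del, a difference of -1.30 ± 0.34 (SE; adjusted p = 0.13). Beyond the 30kdel abc.del minus c.del was -1.17 ± 0.31 (SE; adjusted p = 0.10). On svim the scores there were -1.83 and -2.19 in abc.del and -1.21 to -0.14 in c.del.

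The single deletions of a and b lay between the comparison clones and c.del on average to the right of the 30kdel, and only the difference from a.del passed. Svim minus cast was -0.17 in a.del 53 and -1.11 in a.del G5, and c.del minus a.del was -1.61 ± 0.31 (SE; adjusted p = 0.027), with 2 of 1889 windows lower (0.106%). The windows fell to 0 without c.del A12, c.del B11, c.del C9 or a.del 53 and rose to 6 without c.del C6. In b.del it was -1.01 (D10) and -1.14 (D6), and c.del minus b.del was -1.17 ± 0.31 (SE; 95% interval from -1.81 to -0.53), which did not pass over the chromosome (adjusted p = 0.61), with 0 windows called by limma and 53 at p under 0.05 before adjustment. The svim border lay at 283 and 125 kb to the right of c in a.del, at 244 and 206 kb in b.del, and at 81.3 and 39.5 kb in bc.del. In ac.del and abc.del the svim score was already under 0 beside c in all 4 clones.

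Against a wider set of 16 cas/129 clones with 1 edit outside c, which adds 18kdel, 4kdel, 28.5kdel, 28kdel, 28.5kinv, a.del and b.del, the 4 c.del clones were the lowest for svim minus cast to the right of the 30kdel. The 16 ranged from -1.14 in b.del D6 to 0.15, and the highest c.del clone had -1.80. The difference was -1.64 ± 0.21 (SE; limma adjusted p = 1.2e-05), and 7 windows were called. Between c and the 30kdel 2 of the 16 lay below the highest c.del clone, C6, and the lowest was 4kdel G4 with -1.69. Beyond the 30kdel on svim alone 1 of the 16, a.del G5 with -0.34, lay below the highest c.del clone, C6 with -0.14.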

How the data were processed

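Repli-seq profiles of cas/129 mESC clones were used. The submitters' processing notes name the build mm10 and the tools Bowtie2, bedtools and SAMtools. How reads were filtered, and how scores were smoothed and scaled, is not stated in the labels or file headers. The authors deposited a replication timing score, 1 value per 5 kb at 19641 positions of chromosome 16, whose log base is not given. The 18 columns of the c.del and comparison clones have an interquartile range of 4.60. Scores were averaged over repeat libraries of a clone. Another 6 columns, of a line that no listed sample names and whose edits are therefore unknown here, stayed out, which is why edited clones served for comparison.

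Positions inside the deletions of the clones compared were left out. Mean scores over 50 kb windows with at least 50% of positions left, and over 7 segments between labelled edit ends, were tested together with limma 3.58.1 (lmFit, eBayes) in R 4.3.3 as two-sided tests at a threshold of 0.05, with p-values adjusted by Benjamini and Hochberg's method over the chromosome. Mean scores over 679 gene bodies (GRCm38.p6), or the score nearest the midpoint of a gene that holds no position, were adjusted over genes. Single values had exact two-sided permutation tests over clones. Borders used a running mean of 9 positions. The limma fit was also tried on simulated windows with known shifts. Their noise was independent between windows, so that trial does not cover the dependence of neighbouring windows. Guca1c and Hhla2 of the right flank list, and 2 left flank names, were not matched to measured genes.

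Alternatives were other scalings, 25 kb beside deletions left out, 100 kb windows, other comparison clones, other border levels and each clone left out. The members, lists and tests were chosen with earlier results of these data known. Named were the genes of the lists, by value or count, and the 3 distant windows with the smallest p. Read depth is unknown, so the spread between clones sets the precision. The labels give no batch, and the scores vary smoothly along the chromosome, so neighbouring windows are not independent.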

Additional observations from a re-analysis of the deposited data

Results flagged for a closer look

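Segment and border values were screened for single clones far from their group, in 54 groups of 4 or 5 clones, where chance alone picks out about 1 in 20. Only c.del C6 stood out, in 2 of them. Its svim minus cast between c and the 30kdel was -1.01, where the other 3 c.del clones had -3.18 to -2.84. Its svim border lay 117 kb to the right of c, where theirs lay 0 to 14.9 kb away. Without C6 the svim minus cast difference between the groups was -2.64 between c and the 30kdel and -2.11 to the right of the 30kdel.

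The allele difference depended on genotype in 2 segments by the test of the interaction itself, with -2.12 between c and the 30kdel and -1.97 to the right of the 30kdel.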

How the results depend on the processing

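The svim calls depended on the scaling. Rescaling left 0 svim windows and 0 svim genes and gave -1.54 between c and the 30kdel and -1.57 to the right of it, neither called. Quantile normalization gave 0, 0, -1.58 and -1.48 in the same order, and leaving out both 30kdel clones (chosen after seeing the data) 0, 0, -1.81 and -1.63. Leaving out 25 kb beside deletions, or using 100 kb windows, gave 3 windows each for svim and for svim minus cast, and leaving out both 30kdel clones gave 3 for svim minus cast and -2.11, not called, between c and the 30kdel. With fewer windows tested at 100 kb, 185 differed between the alleles of c.del, where 360 did at 50 kb. Rescaling left 0 windows between ac.del and c.del on svim.

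Leaving out 1 clone at a time gave 0 to 5 svim windows, 3 to 6 svim minus cast windows, 0 to 3 svim genes, -2.08 to -1.68 (svim) and -2.64 to -1.91 (svim minus cast) between c and the 30kdel, and -2.13 to -1.75 (svim) to the right of it. It gave 0 to 7 (svim) and 0 to 9 (svim minus cast) windows for ac.del minus c.del, 0 to 6 for c.del minus a.del and 0 to 2 for c.del minus b.del, both for svim minus cast. The sixth svim minus cast window, at 97250001 with c.del higher, appeared only without 14kdel D11. The cause of these changes was not tested. The right border and the svim minus cast difference to the right of the 30kdel kept direction and call under all alternatives run for them; the border search from a was chosen after seeing the data. With 25 kb beside deletions left out, no position remained between c and the 30kdel. No paired analysis was possible because clones of different genotypes share no number that marks a common culture. The depth behind the scores is unknown.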
